A study of Rattus norvegicus with 15 samples.

Results

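Kidney grafts between genetically matched rats (syngeneic grafts, sTX) were compared with native kidneys that had not been transplanted (ctr), a contrast in which donor and host do not differ in tissue type. Arrays were taken by their titles, sTX 1 to 5 against ctr 1 to 5, which makes 10 of the 15 arrays of the series, and 31042 of the 31099 probe sets on the array were compared after the manufacturer's control probe sets had been set aside. All animals were male rats of 10 to 12 weeks. By the methods of the study, sTX kidneys were left kidneys of Lewis-Brown-Norway (LBN) rats placed into LBN rats whose own kidneys had both been removed just before, so that the graft was the only kidney of its host. Grafts were taken on day 4. The ctr kidneys were untreated native kidneys of LBN rats, which the series description calls the other kidney of the donors, so that a graft and a native kidney may share a donor (which ones is not given), and 1 Affymetrix Rat Genome 230 2.0 array was used for each of the 15 kidneys. The remaining 5 arrays hold LBN kidneys placed into Lewis rats (allogeneic grafts, aTX). They entered the same fit, and their values stand beside sTX only where they show how sTX differed.

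The labels leave 2 points open to doubt. The source names give Lewis donors and Lewis recipients for sTX, where the methods give LBN for both. One treatment field calls sTX 4 and sTX 5 allogeneic, against their titles and source names. They were kept as sTX. The mean of the T cell genes (log2 against the ctr mean) was 0.54 and 0.27 in these 2 arrays. It was 0.27 to 1.055 in sTX 1 to 3 and 3.205 to 3.827 in aTX. Without both, Cdk1, Col1a1, Zfp36 and Slc22a2, which stand below for 4 groups of genes, kept their direction and their call, with adjusted p of 1.3e-08 for Cdk1, 2.9e-07 for Col1a1, 5.6e-09 for Zfp36 and 4.9e-05 for Slc22a2. No sham-operated group was part of the arrays, so surgery, loss of the native kidneys and grafting cannot be told apart.

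A kidney that has lost its blood supply and regained it loses part of its proximal tubule epithelium, the segment that takes back most of the filtered salt, sugar, amino acids and protein. Surviving tubule cells flatten, give up transporters, take on filaments such as vimentin, enter the cell cycle and later regain their polarity. Fibroblasts and pericytes lay down matrix meanwhile, and macrophages clear debris and take part in repair.

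The values are MAS5 signal intensities on a linear scale, a summary over the probe pairs of a transcript that has no unit and cannot be compared between probe sets. A gene is called higher or lower where limma's moderated test on log2 signals gave a p below 0.05 after Benjamini-Hochberg adjustment across the 31042 probe sets. Differences are log2 sTX minus ctr ± SE, folds are ratios of geometric means, and 1 probe set stands for a gene, the brightest over all arrays. Of 14217 genes, 2296 were higher in sTX (16.1%) and 1260 were lower (8.86%), with a median difference of 0.08 over all genes. Every share of a gene group below is to be read against these. Changes were mostly small: 612 of the 2296 and 136 of the 1260 reached 2-fold. By probe set, 11.4% were higher and 6.32% lower, against 2.3% and 0.821% with the block and 5.84% and 15.2% with the centring that the next paragraph describes. In 12.1% of genes every sTX array lay above every ctr array, and in 6.8% below.

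By the time of day in their instrument records, the arrays fell into 2 sets, before and after noon. These are taken here as 2 fluidics runs and called wash runs, which is inferred from the times. The field that holds the times is named for the hybridization date, and only its time of day was used. All ctr arrays were in the first with aTX 2, 3 and 4, and all sTX arrays were in the second with aTX 1 and 5, so no run holds both groups. With the run as a block, sTX against ctr rests on the aTX arrays that bridge the runs, and 525 genes were higher (3.69%) and 177 lower (1.24%). Of the genes called without the block, 2287 of 2296 higher and 1245 of 1260 lower ones kept their sign with it. Their median size (log2) went from 0.62 to 0.56 and from 0.46 to 0.39. The SE also widened, for Cdk1 from 0.17 to 0.31, so a call can be lost through the wider SE as well as through a smaller difference. Between the aTX arrays of both runs, 0 probe sets passed the test in either direction and 1972 (6.35%) had an unadjusted p below 0.05. The blocked result and the run shift (second minus first run within aTX, log2) stand beside genes and groups below. All comparisons of aTX with sTX below are without the block, although aTX 2, 3 and 4 were in the other run than sTX. The part of the run in them was not tested. Ratios of 3' to 5' signals, which rise with RNA breakdown, were lower in sTX than in most ctr arrays for Gapdh (1.07 to 1.13 against 1.13 to 1.25) and actin (1.45 to 1.61 against 1.54 to 1.98). The median signal was 28.8 to 30 in sTX and 24.3 to 26.8 in ctr. The part of these in the results was not tested. When each array was centred on its median, the median over all genes moved from 0.08 to -0.11, and 1219 genes were then higher (8.57%) and 3029 lower (21.3%), so small changes over many genes have no fixed direction here. In whole kidney, moreover, fewer cells of a type and less RNA per cell cannot be told apart.

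**Figure D1:**
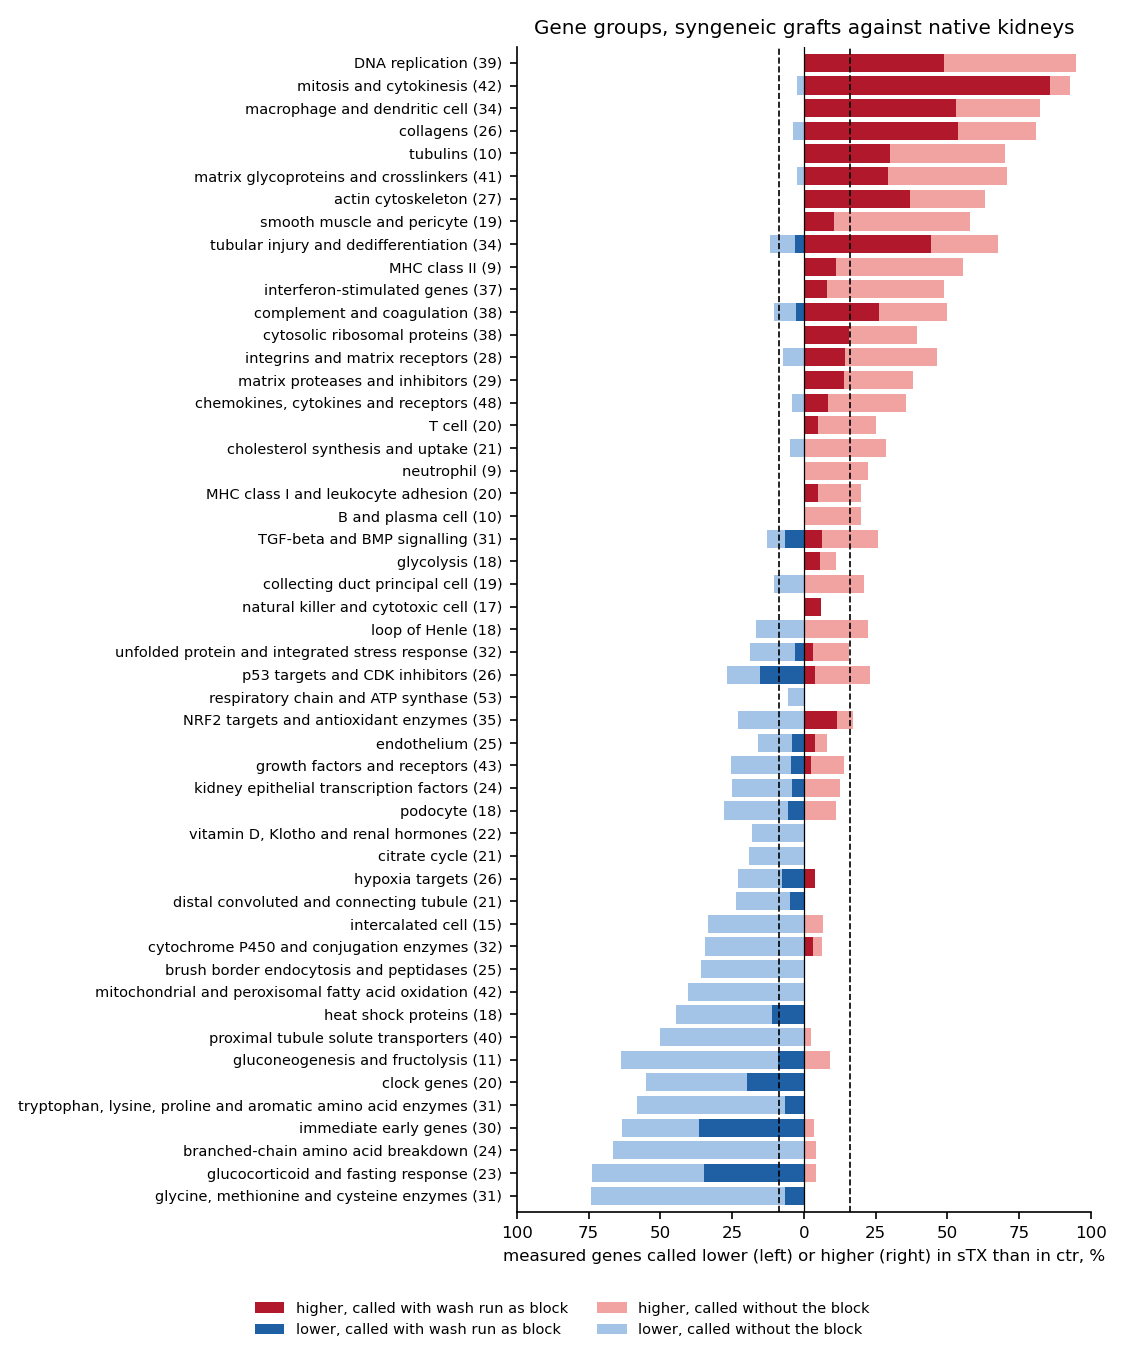
Share of the measured genes of each group that were called higher (right, red) or lower (left, blue) in sTX than in ctr, in percent, with n measured beside the name; dark bars drawn over them are genes called with the wash run as a block. Dashed lines mark the shares over all genes, 16.1% higher and 8.86% lower. DNA replication, mitosis, macrophage genes and collagens extend farthest to the right, and amino acid enzymes, the glucocorticoid and fasting response and gluconeogenesis farthest to the left.

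Genes of cell division had the largest median difference of the 57 gene lists compared. Of 42 genes for mitosis and cytokinesis, 39 were higher and 1 was lower, with a median difference of 2.38, and 36 were also higher with the run as a block. In 38 of them every sTX array lay above every ctr array, against 12.1% of all genes. Cdk1, the kinase that drives entry into mitosis, had signals of 20.5, 32.5, 30.9, 41 and 35.6 in ctr 1 to 5 and 322, 238, 202, 159 and 203 in sTX 1 to 5. Its partners Ccnb1 and Ccnb2, the B-type cyclins, differed by 2.75 ± 0.17 and 2.70 ± 0.19. All grafts were above all native kidneys for each of the 3 genes, sTX 1 was the highest and sTX 4 the lowest graft, and the difference for Cdk1 was 2.80 ± 0.17 (6.99-fold, adjusted p = 1.4e-09, blocked 2.5e-05).

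The same held for genes of the later steps. Pttg1 encodes securin, which keeps sister chromatids from being separated before anaphase, and its signals were 37.3, 41.1, 33.8, 36.5 and 35.1 in ctr 1 to 5 and 408, 276, 231, 197 and 222 in sTX 1 to 5. Prc1, which bundles microtubules of the central spindle, had signals of 22.9, 27.8, 35.3, 30.5 and 35.6 in ctr 1 to 5 and 325, 182, 200, 178 and 216 in sTX 1 to 5. Ect2, the exchange factor that sets the cleavage furrow, had signals of 13.8, 36, 28.9, 38.5 and 27.6 in ctr 1 to 5 and 314, 275, 272, 161 and 158 in sTX 1 to 5. None of these overlapped between the groups, and the differences were 2.81 ± 0.15, 2.84 ± 0.15 and 3.05 ± 0.23, or 7.03-, 7.14- and 8.29-fold. Mki67, the proliferation marker, differed by 2.75 ± 0.23 and Top2a, which untangles chromosomes, by 2.11 ± 0.16. Cdkn3, a phosphatase that acts on cyclin-dependent kinases, had the second largest rise among all genes of sufficient signal, 3.21. The exceptions were Melk, a kinase, which fell by 0.48 (adjusted p = 0.0074, blocked 0.69), and Kif11, the kinesin that keeps spindle poles apart (0.19, adjusted p = 0.21), together with Cenpa, the histone of the centromere, which was not called either (-0.34, 0.83).

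Promoters of 4 of these genes are shown because genes of mitosis are known to share a pair of elements near their start, the cell cycle homology region (CHR, searched as TTTGAA) and the CCAAT box, which binds NF-Y. The sequences are from RefSeq on build GRCr8 and run from 170 bases before to 20 bases after the start on the gene's strand, with both elements in capitals on whichever strand they were found.
Cdk1, chr20:19265123-19265312, plus strand: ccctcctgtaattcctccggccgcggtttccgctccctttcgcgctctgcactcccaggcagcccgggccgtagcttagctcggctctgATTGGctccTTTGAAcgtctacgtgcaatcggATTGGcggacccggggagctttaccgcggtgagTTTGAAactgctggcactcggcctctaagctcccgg
Pttg1, chr10:28406307-28406496, minus strand: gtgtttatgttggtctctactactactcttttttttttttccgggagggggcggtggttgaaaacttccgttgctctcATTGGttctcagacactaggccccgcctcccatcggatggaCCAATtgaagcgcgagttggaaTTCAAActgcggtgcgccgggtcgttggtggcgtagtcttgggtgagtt
Prc1, chr1:143659311-143659500, plus strand: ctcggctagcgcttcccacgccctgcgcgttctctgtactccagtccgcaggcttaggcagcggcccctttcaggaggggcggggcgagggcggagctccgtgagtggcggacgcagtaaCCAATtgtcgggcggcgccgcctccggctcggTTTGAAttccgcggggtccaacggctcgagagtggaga
Ect2, chr2:111966607-111966796, minus strand: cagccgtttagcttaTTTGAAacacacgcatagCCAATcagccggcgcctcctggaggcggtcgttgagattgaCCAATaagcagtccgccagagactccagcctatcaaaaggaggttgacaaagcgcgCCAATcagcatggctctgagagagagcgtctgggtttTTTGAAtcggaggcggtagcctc
In each of them a CHR lies within 30 bases before the start, with its first base at 16 bases before it in Cdk1, 29 in Pttg1, 18 in Prc1 and 3 in Ect2, and a CCAAT box lies 22 to 37 bases farther upstream. Over windows of 300 bases (250 before and 50 after the start), 35 of the 42 mitosis genes matched an entry, and 22 of them (62.9%) held both elements, 21 of which were called higher. Of all 33469 promoters in that RefSeq table, 7.41% held both, 18.3% the CHR and 37.5% the CCAAT box. Here and below, listed genes were counted by symbol, with an element in any entry of the symbol. The share of all promoters was counted by entry, whether or not the gene was on the array. A CHR was found in 26 of the 35, of which all but Cenpa were higher. Of the 9 without one 7 were higher as well, Ccnb1 among them, and the remaining ones were Melk and Kif11. A match describes the letters in this window and not a factor bound there.

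Genes of DNA replication rose as uniformly but by less. Of 39 measured, 37 were higher and 0 lower, the median was 1.09, and 19 were called with the run as a block. They include the helicase subunits Mcm3 (2.37 ± 0.12), Mcm6 (2.26 ± 0.13), Mcm5 (1.74 ± 0.16) and Mcm2 (1.51 ± 0.11), the licensing factor Cdt1 (2.51 ± 0.17), thymidine kinase Tk1 (1.44 ± 0.11) and the primase subunit Prim1 (1.25 ± 0.07). Pcna, the sliding clamp of the polymerases, is bright on the array and had signals of 645, 667, 765, 695 and 629.5 in ctr 1 to 5 and 1242, 1132, 1150.5, 978 and 1227 in sTX 1 to 5. The groups did not overlap, and the difference was 0.75 ± 0.08 (1.68-fold, adjusted p = 8.1e-07, blocked 4.7e-04). In the same promoter windows, 14 of 37 replication genes (37.8%) held an E2F element (TTTCCCGC or TTTGGCGC, either strand) against 1.45% of all promoters, and 1 of 35 mitosis genes (2.86%) did. All 14 replication genes with the element were called higher, as were 21 of the 23 without it.

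Between the graft types, 14 of the 42 mitosis genes were called higher in aTX and 0 lower, where 19.8% of all genes were called higher and 28.4% lower. Cdk1 was at 224, 266, 299, 237 and 254 in aTX 1 to 5, which overlapped sTX (0.22 for aTX minus sTX, adjusted p = 0.36). Replication genes stood higher still in aTX, with a median of 0.52 for aTX minus sTX and 21 of 39 genes called higher. Mcm3 was 2.65-fold higher in aTX than in sTX (adjusted p = 9.2e-09).

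Brakes on the cell cycle did not move as 1 group. Of 26 p53 targets and inhibitors of cyclin-dependent kinases, 6 were higher and 7 lower. Cdkn2c, the inhibitor p18, was higher by 1.09 ± 0.13. The 3 Gadd45 genes, stress-induced partners of growth arrest kinases, were all lower, with differences of -1.27 for Gadd45a, -2.57 for Gadd45b and -2.38 for Gadd45g, and all passed the blocked test too. Gadd45g signals were 464, 381, 603, 603 and 359 in ctr 1 to 5 and 110.3, 108, 92.9, 69.3 and 77.8 in sTX 1 to 5, with no overlap. Cdkn1a, the inhibitor p21 and the best known p53 target, was not called (-0.51, adjusted p = 0.18), and all grafts lay within the range of ctr, which ran from 56.3 in ctr 5 to 231 in ctr 1. Without ctr 5 it was called.

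**Figure D2:**
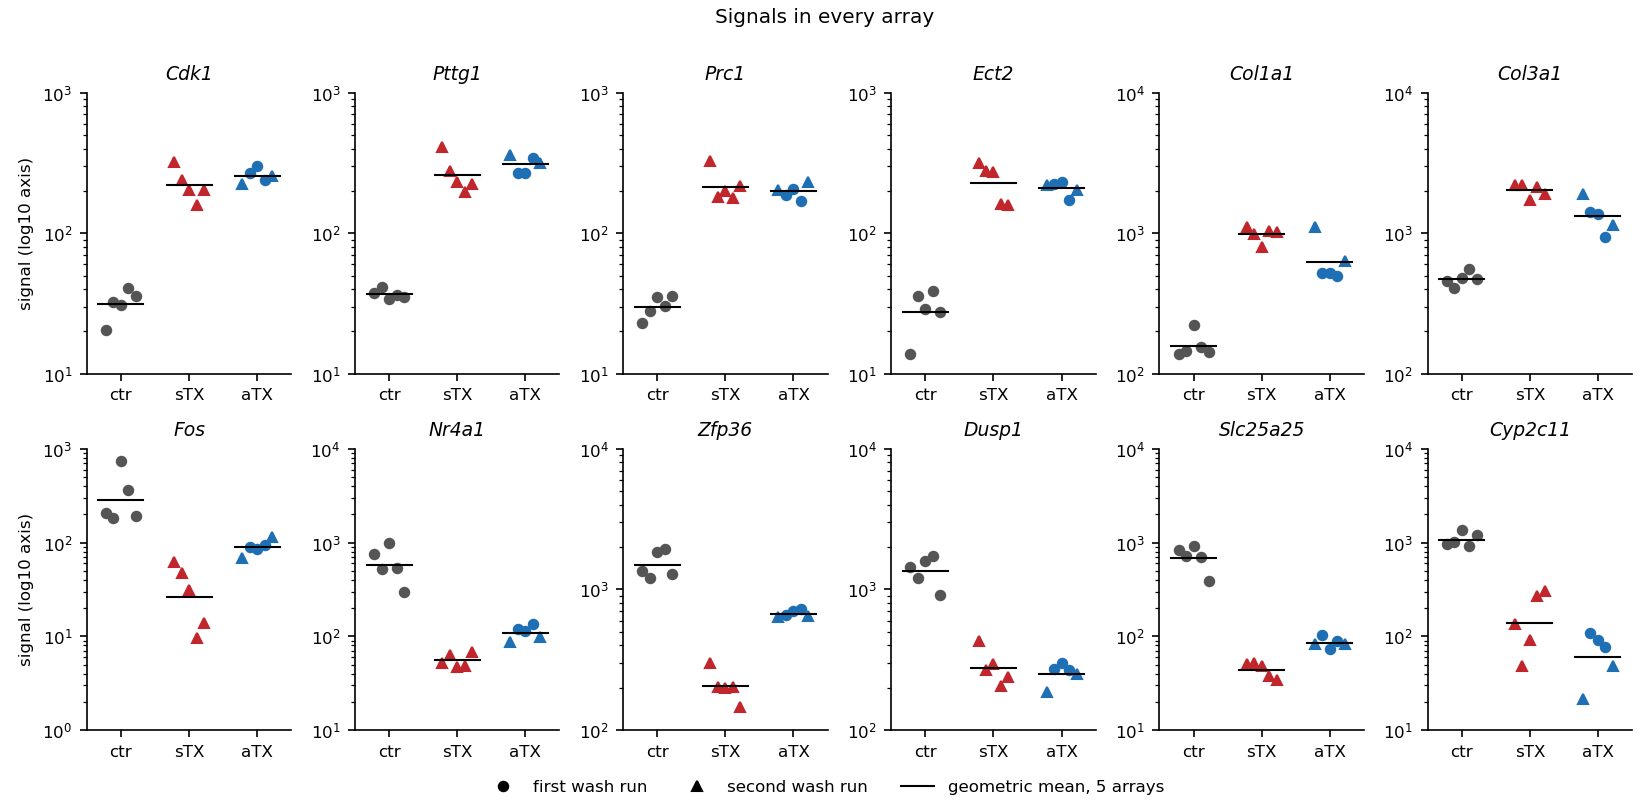
Signals of 12 genes in every array on a log10 axis, with ctr, sTX and aTX side by side; circles are arrays of the first wash run, triangles those of the second, and bars are geometric means of 5 arrays. Every sTX array lies above every ctr array for the 6 genes of the upper row and below for the 6 of the lower row.

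Immediate early genes, the first that cells switch on after a stimulus, were lower in the grafts. Of 30 measured, 19 were lower and 1 higher, with a median of -0.85, and 11 stayed lower with the run as a block. Fos, a subunit of the AP-1 transcription factor, had signals of 206, 184, 739.7, 364 and 191 in ctr 1 to 5 and 62.3, 47.1, 31, 9.5 and 13.7 in sTX 1 to 5. Egr1, a zinc finger transcription factor, had signals of 822, 688, 2466, 1225 and 635 in ctr 1 to 5 and 207, 119.8, 122, 73.7 and 63.2 in sTX 1 to 5. Nr4a1, an orphan nuclear receptor, had signals of 752, 518, 990.4, 532 and 296 in ctr 1 to 5 and 52.5, 63.4, 46.5, 48.6 and 68.6 in sTX 1 to 5. In each case every graft was below every native kidney, and ctr 3 was the highest native kidney, by over 2-fold above the next for Fos and Egr1. The differences were -3.47 ± 0.43, -3.25 ± 0.32 and -3.37 ± 0.22, with adjusted p of 9.2e-06, 4.9e-07 and 3.2e-09 and blocked adjusted p of 0.018, 0.0052 and 2.1e-04. Without ctr 3 and sTX 1, the Fos difference was -3.44.

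Genes with less spread among the native kidneys behaved alike. Zfp36 encodes tristetraprolin, which speeds the decay of cytokine mRNA, and its signals were 1356, 1207, 1835, 1936 and 1290.4 in ctr 1 to 5 and 302, 203, 200.2, 201 and 146 in sTX 1 to 5. Dusp1, the phosphatase that switches off MAP kinases, had signals of 1445, 1213, 1588, 1729 and 916 in ctr 1 to 5 and 428, 266, 295, 205 and 239 in sTX 1 to 5. Jun, the partner of Fos in AP-1, had signals of 1100.4, 1049, 1409, 1239 and 836 in ctr 1 to 5 and 422, 412, 374, 327 and 290.2 in sTX 1 to 5. The groups were apart in all 3, with folds of 7.3, 4.84 and 3.07 lower in sTX and blocked adjusted p of 1.6e-05, 0.0012 and 9.6e-05. Ier2, Junb and Sik1, with differences of -1.57, -1.80 and -2.22, were lower also when blocked. Myc, which belongs to the same first wave, was not called (-0.05, adjusted p = 0.91).

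The promoters of Zfp36 and Dusp1 are given because immediate early genes are known to carry CArG boxes, which bind serum response factor, and cAMP response elements (CRE, TGACGTCA). The stretch is again 170 bases before to 20 after the start on GRCr8, and the capitals mark a CArG box in Zfp36 and a CRE in Dusp1.
Zfp36, chr1:92799089-92799278, minus strand: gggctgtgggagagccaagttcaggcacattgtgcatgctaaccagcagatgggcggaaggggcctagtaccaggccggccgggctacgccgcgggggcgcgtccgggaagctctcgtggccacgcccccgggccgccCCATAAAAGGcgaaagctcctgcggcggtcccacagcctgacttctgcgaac
Dusp1, chr10:17184683-17184872, plus strand: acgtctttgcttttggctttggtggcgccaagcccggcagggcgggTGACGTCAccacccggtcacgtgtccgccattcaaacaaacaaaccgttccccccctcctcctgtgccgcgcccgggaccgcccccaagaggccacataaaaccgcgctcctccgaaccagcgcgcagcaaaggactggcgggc
The CArG box of Zfp36 starts 32 bases before the start and the CRE of Dusp1 124 bases before it. Of 30 immediate early genes 21 matched an entry, and 9 of these (42.9%) held a CArG box or a CRE in the 300 base window, against 3.44% of all promoters. Of the 9, 7 were called lower, and of the 12 without either element 7 were called lower as well. Fos had no entry in the table.

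The immediate early genes were higher in allogeneic than in syngeneic grafts. The median for aTX minus sTX was 1.05, and 21 of 30 genes were called higher in aTX. Zfp36 was at 634, 653, 705, 729 and 650.2 in aTX 1 to 5, between sTX and ctr (3.29-fold above sTX, adjusted p = 1.7e-08). Dusp1 and Nr4a1 differed between the graft types by -0.14 (adjusted p = 0.60) and 0.98 (0.0014).

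Genes that follow glucocorticoids, fasting and the daily clock were lower as well. Of 23 genes of the glucocorticoid and fasting response, 17 were lower and 1 higher (median -0.72), and 8 were lower when blocked. Sgk1, the kinase through which aldosterone and cortisol raise sodium uptake, had signals of 3541, 2745, 2187, 3397 and 3195 in ctr 1 to 5 and 1265, 1234, 1339.7, 1253 and 1295 in sTX 1 to 5. Errfi1, which restrains the EGF receptor, had signals of 2157, 1956, 2129, 2379.9 and 1746 in ctr 1 to 5 and 635, 712, 705, 508 and 399 in sTX 1 to 5. Cebpb, a transcription factor of the acute phase, had signals of 692, 572, 675, 599 and 346 in ctr 1 to 5 and 166, 163, 143, 145 and 119 in sTX 1 to 5. All grafts were below all native kidneys, and sTX 5 and ctr 5 were the lowest of their groups for Errfi1 and Cebpb. The 3 genes were 2.33-, 3.57- and 3.84-fold lower (blocked adjusted p = 0.041, 4.8e-04 and 2.2e-04). Ddit4, which restrains mTOR signalling, fell by 1.85. The plainest glucocorticoid targets moved less: Tsc22d3 (GILZ) fell by 0.55 (blocked adjusted p = 0.36) and Fkbp5 was not called (-0.40, adjusted p = 0.24).

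Of 20 clock genes, 11 were lower and 0 higher, with 4 lower when blocked. Per1, a repressor arm of the clock that stimuli also induce, had signals of 252, 148, 229, 174 and 89 in ctr 1 to 5 and 34.5, 21, 54.7, 35.6 and 35.4 in sTX 1 to 5. Nfil3 and Bhlhe40, which shape clock output, were lower (differences -1.78 and -1.40), and Nr1d1 (Rev-erb alpha) fell by 1.45 (blocked adjusted p = 0.12). Dbp, the output gene with the widest daily swing in most tissues, was not called (0.04 ± 0.17, adjusted p = 0.91), with signals of 98.1, 83.4, 128, 185 and 181 in ctr 1 to 5 and 123, 118, 143, 162 and 121 in sTX 1 to 5.

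**Figure D3:**
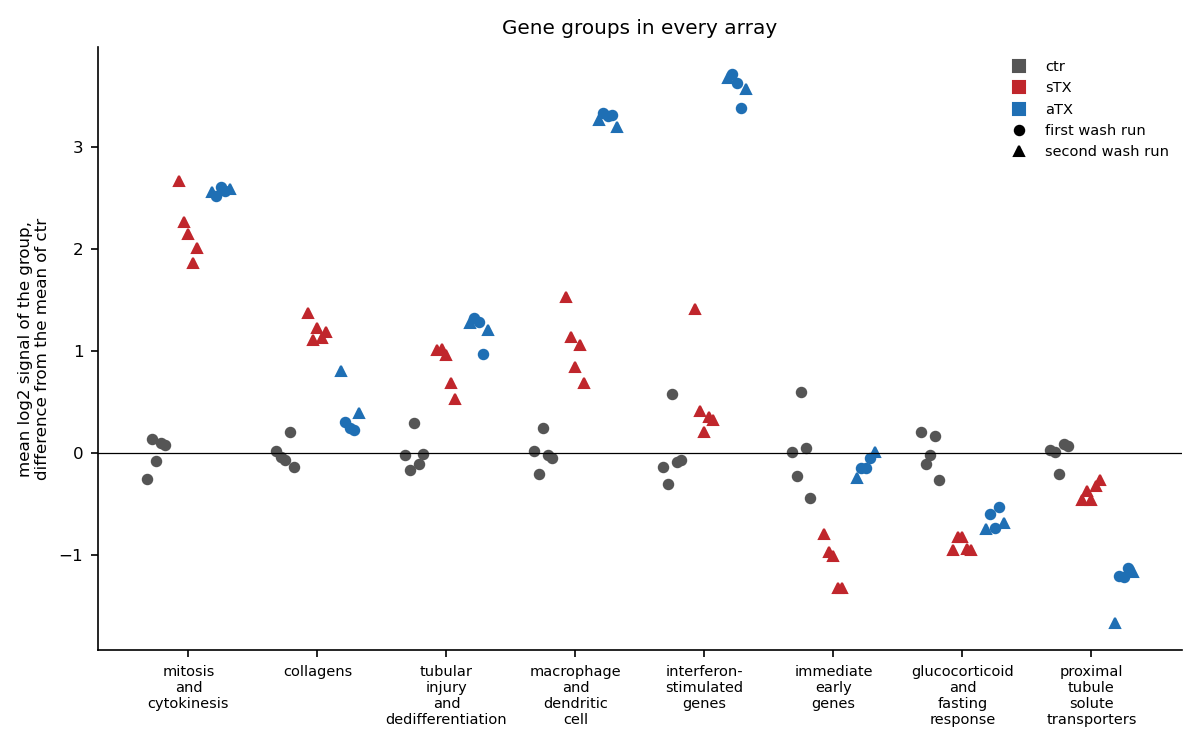
Mean log2 signal of 8 gene groups in each array, as the difference from the mean of the 5 ctr arrays; circles are arrays of the first wash run and triangles those of the second. For cell division the grafts lie between 1.86 and 2.67 and native kidneys between -0.25 and 0.14, while for interferon genes sTX 1 (1.41) and ctr 3 (0.58) lie apart from the other arrays of their groups.

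Markers of tubule injury rose. Of 34 genes listed as markers of injury and dedifferentiation, 23 were higher and 4 lower, and 15 were higher when blocked. Vim, the filament protein that injured tubule cells and mesenchyme share, had signals of 414, 317, 459, 449 and 361 in ctr 1 to 5 and 1368, 1494, 1074, 1084 and 856 in sTX 1 to 5. Spp1, the secreted phosphoprotein osteopontin, had signals of 1928, 1679, 2169, 1706 and 1802 in ctr 1 to 5 and 5929, 7029, 4936, 4632 and 4661 in sTX 1 to 5. Cd44, a receptor for hyaluronan and osteopontin, had signals of 26, 24.6, 45.6, 28.6 and 29.9 in ctr 1 to 5 and 142, 173, 116, 89.5 and 89.7 in sTX 1 to 5. No group overlapped, sTX 2 was the highest graft each time, and differences were 1.54 ± 0.13, 1.54 ± 0.12 and 1.97 ± 0.18 (blocked adjusted p = 2.6e-04, 1.2e-04 and 5.8e-04). Anxa2, a membrane-binding protein, was 2.19-fold and Cp, ceruloplasmin, 2.46-fold higher. Havcr1, kidney injury molecule 1, had signals of 8.4, 1.7, 33, 7.2 and 18.6 in ctr 1 to 5 and 1206, 1799.8, 1190.5, 599 and 326 in sTX 1 to 5. It was low in ctr, the groups did not overlap, and the difference was 6.58 ± 0.58 (95.6-fold, adjusted p = 1.4e-07, blocked 0.003). The members that fell include Gdf15, a stress cytokine, which was 2.89-fold lower with signals of 212, 149, 374, 244 and 229 in ctr 1 to 5 and 111, 73.7, 82.8, 77.2 and 62.6 in sTX 1 to 5.

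Collagens rose in number and size. Of 26 genes, 21 were higher and 1 lower, the median was 1.38, and 14 were higher when blocked, with a median run shift of 0.36 within aTX. Col1a1, the main chain of fibrillar collagen I, had signals of 139, 144, 221, 154 and 144 in ctr 1 to 5 and 1115, 983, 797, 1028 and 1016 in sTX 1 to 5. Col3a1, of the thinner fibres of collagen III, had signals of 454, 409, 481, 553 and 471 in ctr 1 to 5 and 2205, 2208, 1713, 2127 and 1890 in sTX 1 to 5. Every graft was above every native kidney, with sTX 3 the lowest graft for both, and the folds were 6.22 and 4.29 (differences 2.64 ± 0.18 and 2.10 ± 0.14). With the block they were 3.8- and 3.53-fold (adjusted p = 1.5e-04 and 1.8e-04). The beaded collagen VI chains Col6a1, Col6a2 and Col6a3 rose by 1.70, 1.36 and 1.57, and Col5a1 and Col5a2 by 1.89 and 1.87. Basement membrane collagen IV split by chain: Col4a1, found in most basement membranes, was higher by 1.08 ± 0.09, and Col4a4, a chain of the mature glomerular basement membrane, fell by 0.77 ± 0.17 (blocked adjusted p = 0.43).

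Other matrix genes moved with them. Of 41 matrix glycoproteins and crosslinkers, 29 were higher and 1 was lower (12 and 0 when blocked). Fn1, fibronectin, had signals of 389, 408, 381, 487 and 396 in ctr 1 to 5 and 1408, 1126, 1131, 1110.4 and 948 in sTX 1 to 5, without overlap (2.77-fold, blocked adjusted p = 3.3e-04). The crosslinking enzymes Lox and Loxl2 rose by 2.03 ± 0.15 and 2.15 ± 0.16, the small proteoglycan Lum by 2.67 ± 0.22 and the provisional matrix protein Tnc by 1.88 ± 0.13. Of 29 matrix proteases and their inhibitors, 11 were higher and 0 lower. Timp1, an inhibitor of metalloproteinases, had signals of 55.5, 37.6, 70, 37.9 and 49.5 in ctr 1 to 5 and 388, 486, 314, 259.9 and 235 in sTX 1 to 5 and was 6.67-fold higher. Mmp14 and Mmp2, the membrane-bound protease and the gelatinase that it activates, were higher by 1.04 (blocked adjusted p = 0.014) and 1.36 (0.061).

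Contractile genes of smooth muscle and pericytes rose in part. Of 19, 11 were higher and 0 lower (2 and 0 when blocked). Acta2, the smooth muscle actin that myofibroblasts also make, had signals of 185, 139, 222, 173 and 157 in ctr 1 to 5 and 389, 412, 349.6, 306 and 468 in sTX 1 to 5, and Tagln, which binds actin, of 318, 224, 239, 236 and 227 in ctr 1 to 5 and 655, 769.8, 704, 607 and 764 in sTX 1 to 5. Neither overlapped between groups (2.2- and 2.83-fold, blocked adjusted p = 0.018 and 0.0019). Myh11, the myosin of mature smooth muscle, was not called (-0.48, adjusted p = 0.091).

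Signals of the TGF-beta and BMP pathway went both ways, with 8 of 31 genes higher and 4 lower (2 and 2 when blocked). Tgfb1 was higher by 0.62 ± 0.12 (blocked adjusted p = 0.14) and Grem1, a secreted BMP antagonist, by 1.07 ± 0.13, while Bmp7 was not called (-0.08, adjusted p = 0.52). Id3, a target of BMP signalling, had signals of 277, 353, 357, 381 and 419.7 in ctr 1 to 5 and 876, 716, 692, 692 and 610.2 in sTX 1 to 5 (2.01-fold higher, blocked adjusted p = 0.048). Ccn2, the connective tissue growth factor that TGF-beta and stretch induce, was lower, with signals of 2469.7, 1913, 1454, 1790.4 and 1064 in ctr 1 to 5 and 595, 572, 479, 447 and 527 in sTX 1 to 5. That is 3.21-fold, and p was 6.8e-06 without and 0.048 with the block.

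Without the run as a block, collagens were lower in allogeneic than in syngeneic grafts. Of the 26 collagens, 21 were lower in aTX than in sTX and 0 higher, with 28.4% of all genes lower in that comparison, and the median was -0.69. For Col1a1 the difference aTX minus sTX was -0.65, beside a run shift of 0.71 within aTX. Within the second wash run, which both graft types share, Col1a1 was at 1103 and 636 in aTX 1 and 5 and at 797 to 1115 in sTX, so the 2 groups overlapped there. Col3a1 in aTX 1 to 5 was at 1902, 1408, 1369, 935 and 1150.3. Grem1 was 6.05-fold lower in aTX (adjusted p = 5.5e-12), at 55.6, 62.6, 76.8, 71.2 and 69.7 in aTX 1 to 5 against 332, 417, 429, 466 and 388 in sTX, with no overlap. Tagln was also lower in aTX (-1.02, adjusted p = 1.3e-06).

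**Figure D4:**
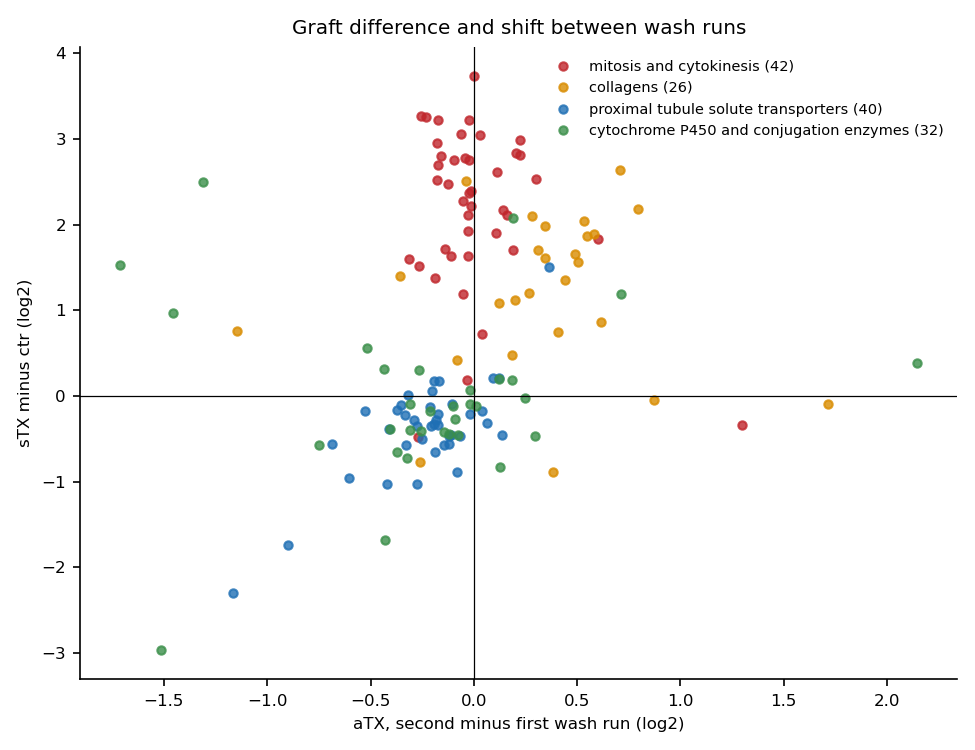
Difference sTX minus ctr (log2, vertical) against the shift between wash runs within aTX (second minus first run, log2, horizontal) for the genes of 4 groups. Mitosis genes lie around 0 on the horizontal axis (median -0.03), most collagens to its right (median 0.36), and most proximal tubule transporters (median -0.19) and cytochrome P450 and conjugation genes (median -0.18) to its left.

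Genes of cell shape rose with a smaller size. Of 27 actin cytoskeleton genes, 17 were higher and 0 lower (10 when blocked, and 11 and 2 after centring on the median). Actn1, which crosslinks actin, and Tagln2 were higher by 1.04 ± 0.11 and 0.76 ± 0.06, while Myh9, the non-muscle myosin, was not called (0.20, adjusted p = 0.12). Of 10 tubulins 7 were higher, with Tubb5 at 271, 299, 312, 287 and 269 in ctr 1 to 5 and 1121, 907, 763, 662 and 804 in sTX 1 to 5 (2.92-fold, blocked adjusted p = 4.2e-05). Among integrins and matrix receptors, 13 of 28 were higher and 2 lower, but 6 and 7 after centring. Cytosolic ribosomal protein genes had a median of 0.24, and 15 of 38 were higher, against 2 after centring.

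Transporters of the proximal tubule were lower. Of 40, 20 were lower and 1 higher, with a median of -0.34, and 0 stayed lower with the run as a block, where the median was -0.14. The run shift within aTX had the same sign (median -0.19). Slc22a2, the organic cation transporter OCT2, had signals of 2259.9, 2122, 2405, 2392 and 2156 in ctr 1 to 5 and 901, 799, 984, 1301 and 1812 in sTX 1 to 5. Slc22a6, the organic anion transporter OAT1, had signals of 1582, 1714, 1398, 1780.1 and 1728 in ctr 1 to 5 and 868, 1040.4, 1100, 1368 and 1158 in sTX 1 to 5. Slc13a2, which takes up citrate, had signals of 572, 604, 605, 460.2 and 564 in ctr 1 to 5 and 234, 261, 282, 299 and 296 in sTX 1 to 5. Groups did not overlap, and folds were 2.04, 1.49 and 2.04 (adjusted p = 8.9e-04, 0.0019 and 4.1e-05, blocked 0.30, 0.60 and 0.19). Among the grafts, sTX 4 and sTX 5 lay nearest to ctr for the first 2.

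The main transporters of phosphate and glucose were not called with all arrays, and for the glucose transporter this rested on ctr 3. Slc34a1, the main phosphate transporter of the brush border, had signals of 4054, 3774, 3458, 4923 and 4708 in ctr 1 to 5 and 3791, 4188, 3375, 3785 and 4277 in sTX 1 to 5, and the groups overlapped (-0.10 ± 0.11, adjusted p = 0.62). Slc5a2, the glucose transporter SGLT2, differed by -0.21 (adjusted p = 0.49), with ctr 3 at 279 below all other arrays and the rest of ctr at 612.5 to 738 against 439 to 515 in sTX. Without ctr 3 and sTX 1 its difference was -0.47 (adjusted p = 0.002). The 1 member called higher was Slc34a2, a phosphate transporter of lung and gut, with signals of 150.3, 148, 239, 113 and 133 in ctr 1 to 5 and 584, 702, 474, 348 and 217 in sTX 1 to 5. Only sTX 5 overlapped ctr, and the blocked adjusted p was 0.24.

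Of 25 brush border genes for endocytosis and peptide breakdown, 9 were lower and 0 higher (0 lower when blocked). The receptors for filtered protein, Lrp2 (megalin) and Cubn (cubilin), were not called, with differences of -0.22 and -0.04 and adjusted p of 0.098 and 0.88. After centring on the median, Lrp2 was called (-0.42, adjusted p = 0.0047). The peptidases Mep1b and Anpep were lower (differences -0.85 and -0.48, blocked adjusted p = 0.35 and 0.13).

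Both groups were lower still in allogeneic grafts. For the transporters, the median of aTX minus sTX was -0.86 and 36 of 40 were lower in aTX. For Lrp2, aTX arrays were at 659, 659, 649, 716 and 827, 3.17-fold below sTX (adjusted p = 2.1e-11).

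Enzymes of amino acid breakdown, a task of the proximal tubule, were lower together and by little. Of 31 genes for glycine, methionine and cysteine, 23 were lower and 0 higher, with 2 lower when blocked. For tryptophan, lysine, proline and aromatic amino acids it was 18 of 31 (2 blocked), and for branched-chain amino acids 16 of 24 (0 blocked). Csad, which makes the taurine precursor hypotaurine, had signals of 602, 608, 762, 576 and 533 in ctr 1 to 5 and 232, 202, 322, 256 and 349 in sTX 1 to 5. Haao, of the path from tryptophan to NAD, had signals of 1028, 1222, 1254, 957 and 1226 in ctr 1 to 5 and 462, 425, 478, 633 and 676 in sTX 1 to 5. No array overlapped, and both differences, -1.20 ± 0.14 and -1.11 ± 0.13, remained with the block (adjusted p = 0.0073 and 0.019). Odc1, the rate-limiting enzyme of polyamine synthesis, was 1.85-fold lower (blocked adjusted p = 0.039). Ass1 and Gatm, which make arginine and the creatine precursor, were not called (-0.16 and -0.10, adjusted p = 0.45 and 0.71).

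Genes of fatty acid oxidation and gluconeogenesis were also lower in part, while glycolysis genes had 2 of 18 higher and 0 lower. Of 42 genes of fatty acid oxidation 17 were lower and 0 higher (0 lower when blocked), with Acadm, the medium-chain dehydrogenase, at 2639, 2643, 2897, 2866 and 2983 in ctr 1 to 5 and 1759, 1712, 1815, 2057 and 2376 in sTX 1 to 5. Of 11 genes of gluconeogenesis and fructose use, 7 were lower and 1 higher. Pck1, the first committed enzyme of gluconeogenesis, had signals of 3407, 3192, 2681, 4366 and 3439 in ctr 1 to 5 and 1745, 1931, 1996, 1797 and 2200 in sTX 1 to 5. The groups did not overlap for either gene, but Pck1 shifted by -0.60 between the runs in aTX and its blocked adjusted p was 0.71. Khk, which starts fructose breakdown, fell by 0.72 ± 0.14 (blocked adjusted p = 0.21) and Ldhd, a lactate dehydrogenase of the D form, fell by 0.84 ± 0.09 (0.021). Fbp1, a later gluconeogenic enzyme, was not called (-0.18, adjusted p = 0.30). The respiratory chain hardly moved, with 3 of 53 genes lower and a median of -0.03, although 26 were lower after centring.

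Cyp2c11, a male-specific steroid hydroxylase, had signals of 964, 1003, 1346, 912 and 1217 in ctr 1 to 5 and 134, 48.3, 91.9, 271 and 304 in sTX 1 to 5. All grafts were below all native kidneys by 7.83-fold (adjusted p = 5.3e-05), sTX 4 and sTX 5 being the highest. Within aTX, however, the shift from the first to the second run was -1.52 on the log2 scale, and the blocked difference was -1.45 (adjusted p = 0.28). Slco1a1, an organic anion transporter, behaved likewise (-1.74, run shift -0.90, blocked adjusted p = 0.46). Of 32 genes for cytochrome P450 and conjugation enzymes, 11 were lower and 2 higher, and 0 were lower when blocked. Cyp1b1, which oxidizes oestrogens and aromatic compounds and is found in mesenchyme, rose to 148, 119.9, 117, 102 and 87.2 in sTX from 23, 26.1, 30.2, 26.9 and 28.6 in ctr (blocked adjusted p = 4.9e-04).

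**Figure D5:**
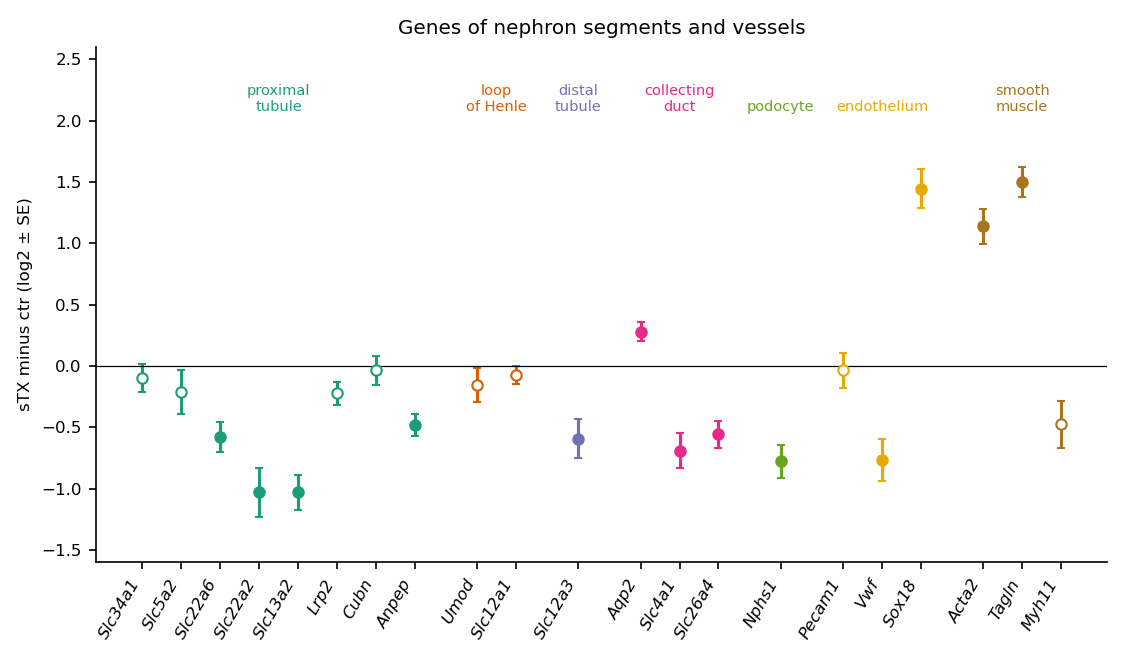
Difference sTX minus ctr (log2, points, with SE as bars) for anchor genes of nephron segments, glomerulus and vessels; filled points were called and open points were not. Umod and Slc12a1 of the loop of Henle lie at -0.16 and -0.07, Slc12a3 of the distal tubule at -0.60, Aqp2 of the collecting duct at 0.28 and Nphs1 of podocytes at -0.78.

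Of the later nephron segments, the loop of Henle and the principal cells of the collecting duct had genes called in both directions. Those of the distal convoluted and connecting tubule were called only lower. In the loop of Henle 4 of 18 genes were higher and 3 lower, with none called when blocked (0 and 0). Umod, uromodulin, had signals of 4710.5, 4274, 4686, 5522 and 5478 in ctr 1 to 5 and 4201, 4519, 3789.5, 4245 and 5452 in sTX 1 to 5, and Slc12a1, the transporter that loop diuretics block, of 1294, 1362, 1272, 1308 and 1216 in ctr 1 to 5 and 1183, 1224, 1237, 1144 and 1358 in sTX 1 to 5. Both overlapped between the groups (adjusted p = 0.51 and 0.58). Slc12a3, the thiazide-sensitive transporter of the distal convoluted tubule, had signals of 538, 446, 655, 499.7 and 490.4 in ctr 1 to 5 and 295, 212, 376, 454 and 459 in sTX 1 to 5, with a difference of -0.60 and with sTX 4 and sTX 5 inside the range of ctr (adjusted p = 0.012, blocked 0.37, 0.085 without ctr 3 and sTX 1). Aqp2, the water channel that vasopressin controls, had signals of 2037, 1815, 2295, 1978 and 2057 in ctr 1 to 5 and 2454, 2349, 2259, 2456 and 2842 in sTX 1 to 5 and was 1.21-fold higher (adjusted p = 0.019, blocked 0.48, 0.51 after centring). Of 15 intercalated cell genes 5 were lower, among them Slc4a1, the bicarbonate exchanger (-0.69, blocked adjusted p = 0.11), and Slc26a4, pendrin (-0.56, 0.11).

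Among kidney transcription factors 3 of 24 were higher and 6 lower. Hnf4a, which maintains the proximal tubule programme, fell by 0.37 ± 0.09 (blocked adjusted p = 0.28). Pax2, a factor of kidney development, fell by 0.74 ± 0.15 (0.26). Tcf21, a factor of podocytes and stroma, was higher, with signals of 158, 176, 136, 175 and 272 in ctr 1 to 5 and 418, 286, 412, 535 and 404 in sTX 1 to 5 and no overlap (2.26-fold, blocked adjusted p = 0.17). Podocyte genes counted 2 higher and 5 lower of 18. Nphs1, nephrin of the slit diaphragm, was at 67, 88.6, 85.7, 72.9 and 70.3 in ctr 1 to 5 and 41.3, 43, 41.9, 41.6 and 56.6 in sTX 1 to 5 (1.72-fold lower, blocked adjusted p = 0.028). The other probe set of Nphs1 was not called. Of 25 endothelial genes 2 were higher and 4 lower. Sox18, a factor of growing vessels, rose by 1.44 ± 0.16 (blocked adjusted p = 0.021), Vwf, von Willebrand factor, fell by 0.77 ± 0.17 (0.54), and Pecam1, a general marker of endothelium, was not called (-0.04, adjusted p = 0.90).

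Macrophage genes rose in most members. Of 34, 28 were higher and 0 lower, with a median of 0.91, and 18 were higher when blocked. The summed signal of the whole marker list, in which bright probe sets weigh most, ranged from 9356 to 13578 in sTX and from 5935 to 7239.8 in ctr. C1qa, a chain of complement C1q that resident macrophages make, had signals of 159, 157, 203, 178 and 149.9 in ctr 1 to 5 and 564, 488, 372, 427 and 324 in sTX 1 to 5. Mrc1, the mannose receptor, had signals of 16.3, 11.1, 21.6, 13.4 and 13.5 in ctr 1 to 5 and 108, 116, 104, 105 and 49.8 in sTX 1 to 5. Adgre1 (F4/80), a surface receptor of tissue macrophages, had signals of 53.2, 40.6, 44.1, 42.5 and 43.3 in ctr 1 to 5 and 141, 107, 112, 134 and 88.7 in sTX 1 to 5. All grafts were above all native kidneys, sTX 5 was the lowest each time, and the folds were 2.54, 6.25 and 2.58 (blocked adjusted p = 2.7e-04, 0.0024 and 0.003). Cd68, a lysosomal protein, rose by 1.32 ± 0.13, while Cd163, a scavenger receptor, had low signals in both groups (1.3 to 4.2 in ctr and 2.2 to 12.6 in sTX) and was not called.

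Macrophage genes did not all differ between the graft types. C1qa was 4.43-fold higher in aTX than in sTX (adjusted p = 3.1e-11) and Cd68 6.05-fold. Mrc1 was not called between them (0.16, adjusted p = 0.65), and Adgre1 was lower in aTX (-0.48, 0.003). The chemokine Ccl6 was also lower in aTX (-0.99, 1.1e-06), after a rise of 2.14 ± 0.12 in sTX against ctr with signals of 72.9, 72.2, 75.1, 59 and 79.1 in ctr 1 to 5 and 285, 328, 326, 373 and 268 in sTX 1 to 5.

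Most lymphocyte genes had low signals, and their counts are to be read against the 16.1% of all genes called higher. Of 20 T cell genes 5 were higher and 0 lower (1 when blocked), and of 17 natural killer and cytotoxic genes 1 was higher (also when blocked). Of 10 B cell genes 2 were higher, near the share of all genes, and neither of them when blocked. The called T cell genes rose by 0.63 to 0.94. The 1 called when blocked was Lck (0.69 ± 0.14, adjusted p = 0.0014, blocked 0.041), with all grafts above all native kidneys. Cd8a, the coreceptor of cytotoxic T cells, had signals of 3.0, 11.4, 18.6, 9.8 and 2.7 in ctr 1 to 5 and 32.6, 11.9, 11.1, 16.1 and 10.8 in sTX 1 to 5 (adjusted p = 0.091, 0.043 without ctr 3 and sTX 1). Gzmb, granzyme B, had signals of 6.6, 14.1, 32, 16.7 and 16.5 in ctr 1 to 5 and 79.6, 29, 21.2, 26 and 13.5 in sTX 1 to 5 (adjusted p = 0.12), sTX 1 being the highest for both. In aTX, Gzmb was at 1314, 1453, 1381, 1958 and 1757, 55.5-fold above sTX (adjusted p = 2.2e-10). Cd4, which rat macrophages also carry, was higher in sTX by 0.94 ± 0.15 (blocked adjusted p = 0.15). The neutrophil gene S100a9 was at 3.1, 11, 11.8, 1.9 and 8.6 in ctr 1 to 5 and 28.9, 24.1, 72.6, 20.6 and 13 in sTX 1 to 5 (4.6-fold, adjusted p = 0.003, blocked 0.46), and its partner S100a8 was not called (0.75, adjusted p = 0.46).

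Among interferon-stimulated genes 2 arrays stood apart from their groups. Of 37, 18 were higher and 0 lower (3 when blocked, 9 after centring). Irf1, the transcription factor that interferon gamma induces, had signals of 65.6, 72.2, 177, 73 and 89.6 in ctr 1 to 5 and 419.5, 231, 183, 189 and 156 in sTX 1 to 5. Gbp2, a guanylate-binding protein, had signals of 68.5, 66.5, 288, 85.5 and 86.2 in ctr 1 to 5 and 627, 247, 179, 179 and 127 in sTX 1 to 5. Psmb9, a subunit of the immunoproteasome, had signals of 112, 124, 270.5, 119 and 125 in ctr 1 to 5 and 589, 312, 251, 263 and 208 in sTX 1 to 5. In each, sTX 1 was over 1.8-fold above the next graft and ctr 3 over 1.9-fold above the next native kidney, and ctr 3 lay within the range of sTX. Without these 2 arrays, an alternative chosen after seeing the data, 18 genes were higher and 1 was lower, and the adjusted p of Gbp2 changed from 0.026 to 1.4e-05. Mx1, which type I interferon induces, was not called (0.02, adjusted p = 0.97). These genes were far higher in aTX, with a median of 3.16 for aTX minus sTX and 36 of 37 called.

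Of 38 genes of complement and coagulation 19 were higher and 4 lower (10 and 1 when blocked). A2m, the protease inhibitor alpha-2-macroglobulin, an acute phase protein in rats, had signals of 12.7, 8.7, 13.6, 13.9 and 9.4 in ctr 1 to 5 and 115, 128, 95.9, 88.3 and 79 in sTX 1 to 5, which is 8.72-fold without overlap (blocked adjusted p = 4.0e-05). C3 was higher by 0.83 ± 0.23 with sTX 3 and sTX 5 within the range of ctr (blocked adjusted p = 0.26). F3, tissue factor, which starts coagulation, fell, with signals of 774, 813, 503, 760.2 and 591 in ctr 1 to 5 and 294, 314, 279, 272 and 207 in sTX 1 to 5 (2.5-fold, blocked adjusted p = 0.0043). Of 48 chemokines, cytokines and their receptors 17 were higher and 2 lower. Il6 and Cxcl1, early cytokines of injury, were below 36 in all 10 arrays and were not called (adjusted p = 0.98 and 0.19). Tnfrsf12a, the receptor of TWEAK, had signals of 117, 108, 162, 156 and 100.4 in ctr 1 to 5 and 336, 403, 345, 218 and 181 in sTX 1 to 5 (2.25-fold, blocked adjusted p = 0.12).

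Growth factors and hormones were more often lower than higher. Of 43 growth factors and receptors, 6 were higher and 11 lower (1 and 2 when blocked). Axl, a receptor by which cells take up dying cells, was at 130.1, 118, 132, 119 and 125 in ctr 1 to 5 and 319, 334, 288, 269 and 273 in sTX 1 to 5 (2.37-fold, blocked adjusted p = 3.3e-05). Vegfa, the growth factor of vessels, was at 593, 520, 687, 570.5 and 449 in ctr 1 to 5 and 349.6, 369, 331, 339 and 365 in sTX 1 to 5 (1.59-fold lower, blocked adjusted p = 0.069), and Igf1 and Igfbp1 fell (differences -0.58 ± 0.13 and -1.09 ± 0.17, blocked adjusted p = 0.064 and 0.15). Egf, which the loop of Henle makes, was not called, with 4 grafts at 1691 to 1846 and sTX 5 at 2503, inside the ctr range of 2246 to 2637 (adjusted p = 0.18). Agt, angiotensinogen, fell by 1.38 ± 0.21 (blocked adjusted p = 0.21), and Kl, Klotho, had low signals and was not called (0.45, adjusted p = 0.25).

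Stress pathways gave no uniform picture. Hypoxia targets counted 1 higher and 6 lower of 26, and Slc2a1, the glucose transporter GLUT1, was not called (0.04, adjusted p = 0.83). Of 18 heat shock genes 8 were lower and 0 higher, among them Bag3 and Dnajb4 (-0.67 and -0.51, blocked adjusted p = 0.031 and 0.0036). NRF2 targets and antioxidant enzymes counted 6 higher and 8 lower of 35. Hmox1, heme oxygenase 1, had signals of 29.9, 29.6, 38.8, 35.2 and 34.8 in ctr 1 to 5 and 124, 84.9, 60, 107 and 104 in sTX 1 to 5, and Gpx2, a glutathione peroxidase, of 101, 205, 162, 169 and 183 in ctr 1 to 5 and 456, 588, 418, 429 and 348 in sTX 1 to 5, both without overlap (2.79- and 2.77-fold, blocked adjusted p = 0.018 and 0.0054). Nqo1, another NRF2 target, was not called (0.18, adjusted p = 0.33).

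Markers of tissues next to the kidney were checked as possible admixture. The adipocyte list had 4 of 10 genes lower and 0 higher. Ucp1, the marker of brown fat, was at 46.7, 62.9, 269.8, 29.7 and 40.6 in ctr 1 to 5 and 6.0, 1.3, 4.9, 7.6 and 6.4 in sTX 1 to 5, higher in every native kidney than in any graft and highest in ctr 3, while the fat hormone Adipoq was not called (0.05, adjusted p = 0.90). Lpl, Cidec and Pck1 were the other members that were lower, and Pck1 is also a gene of the proximal tubule. The summed signal of the list, Pck1 included, was 4222 to 5229.9 in ctr and 2441 to 2993 in sTX. Most of it was Pck1, at 2681 to 4366 in ctr and 1745 to 2200 in sTX, so the sum says little about fat. The list mean was highest in ctr 3 (0.77, log2 against the ctr mean). The urothelial list had 3 of 8 higher, with Upk3a, a protein of the bladder and ureter surface, at 24.1, 32.3, 41.9, 27.9 and 24.4 in ctr 1 to 5 and 92.3, 69, 68.3, 75.6 and 88.1 in sTX 1 to 5. Its summed signal was 180.4 to 293 in ctr and 305 to 375 in sTX. Of 10 skeletal muscle genes and 7 adrenal genes 0 were called in either direction, of 7 Schwann cell genes 1 (Pmp22, 0.84), and of 6 erythroid genes 1 (Slc4a1, which intercalated cells also express). The part of admixed fat or urothelium in the results was not tested.

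The grafts differed among themselves in a graded way. Of the 3539 probe sets called higher, sTX 1 was the highest graft for 32.1% and sTX 5 the lowest for 33.9%. Of the 1961 called lower, sTX 5 was the highest graft, nearest to ctr, for 35.9% and sTX 2 the lowest for 33.6%. In the list means (log2 against the ctr mean), sTX 1 to 5 stood at 1.02, 1.02, 0.96, 0.69 and 0.53 for tubule injury, at 1.53, 1.14, 0.85, 1.06 and 0.69 for macrophages and at -0.60, -0.54, -0.55, -0.41 and -0.21 for glycine, methionine and cysteine enzymes. For collagens the grafts were close together, at 1.38, 1.11, 1.22, 1.13 and 1.19. Of the genes with a signal of at least 200 in sTX, the widest spread among grafts was that of Cxcl11, Havcr1, Bcl6, Gbp2, Lcn2 and Gbp7. Bcl6, a transcriptional repressor, was at 157, 98.7, 167, 428 and 399 in sTX 1 to 5, where ctr ranged from 103 to 357, and was not called. Among native kidneys ctr 3 was the highest for 27.4% of the probe sets called higher in sTX and for 33.8% of those called lower. Without ctr 3 and sTX 1, 39 mitosis genes, 27 macrophage genes and 21 collagens were higher, and 18 immediate early genes were lower.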

How the data were processed

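Kidney RNA of 5 ctr, 5 sTX and 5 aTX rats was hybridized to 1 array each. The deposited values are MAS5 intensities that the authors left on a linear scale, with every array scaled to the same trimmed mean. No read or probe counts underlie them, so the number of arrays (n = 5 a group) limits the precision. From these, log2 signals were taken, 54 zeros in 36 probe sets being set to 0.05, with no offset and no filter. The 57 manufacturer's controls were set aside. limma 3.58.1 (R 4.3.3) was fitted to all 15 arrays with an intensity trend, and p was adjusted by Benjamini and Hochberg over 31042 probe sets. Of these, 20826 carried 1 gene symbol (14217 genes), 436 several and 9780 none, and only the first were named. For a gene with several probe sets the one with the highest mean log2 signal was used. The others were not always called: Fos and Nphs1 each had 1 of 2 probe sets called lower.

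The gene lists, members and tests were chosen with earlier results of these data known, so the lists give no independent evidence. Genes were named where they were among the 12 largest rises or falls of genes with a geometric mean of at least 200 and groups apart, among the 4 largest changes of a list (at least 50) or its anchors, or among the 6 most variable in sTX. Outside this rule, Adgre1, Anxa2, Ccnb2, Cdkn2c, Cenpa, Col5a1, Col5a2, Col6a1, Col6a2, Col6a3, Cp, Eno2, Errfi1, F3, Ier2, Jun, Junb, Kif11, Melk, Mki67, Pdia3, Pdia6, Prim1, Psmb9, Sik1, Slc22a2 and Tk1 were chosen after their values were seen. Arrays were grouped by their titles. The fit was tested on simulated data. Titles share replicate numbers, but same-numbered arrays did not deviate together (correlations of -0.019 to 0.027). Alternatives were the fit on 10 arrays, no trend, the methods' t-test, median centring, quantile normalization, an offset of 16, a floor of 20, a filter at 50, the wash run as a block, the replicate number as a block, and leaving out arrays. Promoters came from a RefSeq table on GRCr8 and were searched for exact motif letters on both strands.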

Additional observations from a re-analysis of the deposited data

Results flagged for a closer look

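Among the 334 sets of 5 arrays (ctr and sTX of each gene named here except Lck), 24 held 1 array far from the other 4. The measure was the share of the whole log2 range that the gap to its nearest neighbour took. Chance gives about 1 in 20 such sets.

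Native kidney ctr 3 was the most frequent. It lay above the other native kidneys for Psmb9 (gap 0.877 of the range), Gbp2 (0.823), Cdt1 (0.790), Col1a1 (0.785), Junb (0.774), Anxa2 (0.760) and Mep1b (0.716), and below them for Col4a4 (0.820) and Slc5a2 (0.808). Native kidney ctr 5 lay below for Myc (0.883), Sik1 (0.742) and Cebpb (0.724), and ctr 4 lay below for Nqo1 (0.806) and Slc13a2 (0.747) and above for Fn1 (0.725). Native kidney ctr 1 lay above for Tagln (0.809).

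Of the grafts, sTX 5 lay below for Mrc1 (0.875) and above for Nphs1 (0.872) and Egf (0.776). Graft sTX 1 lay above for Ccnb2 (0.801) and Cd68 (0.751). Graft sTX 4 lay below for Sik1 (0.720) and Tnc (0.715), and sTX 2 lay below for Ucp1 (0.751), all of whose graft signals were low. The steps from the lone array to the nearest were at most 1.65-fold except for Gbp2 (3.34), Ucp1 in sTX (3.77), Sik1 in ctr (2.71), Junb (2.63), Slc5a2 (2.20), Psmb9 (2.16), Myc (2.12) and Mrc1 (2.09).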

How the results depend on the processing

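The main counts were 3539 probe sets higher and 1961 lower. The wash run as a block gave 713 and 255, centring each array on its median 1812 and 4724, and the methods' t-test at an unadjusted p of 0.001 gave 1329 and 716 (2529 and 1429 after Benjamini-Hochberg adjustment). The replicate block, for numbers that did not pair the arrays, gave 3403 and 1899 and changed none of the 134 calls among the 167 genes named. Lck is not counted among these genes. Leaving out 1 array in turn gave 2860 to 3477 higher and 1581 to 1915 lower. Without ctr 3 and sTX 1, an alternative chosen after seeing the data, the counts were 2934 and 1624. The other alternatives stayed within 1.5 times the main counts.

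No named gene was called in opposite directions under any of these settings. Of the 134 calls, 43 were lost when blocking on the wash run and 5 after centring, where 7 genes gained a call (Bmp7, Cdkn1a, Egf, Fbp1, Lrp2, Myh11 and Slc12a1, all lower). Leaving out 1 array ended the calls of 3 genes: Gbp2 (without sTX 1 or 2, or any of ctr 1, 2, 4 and 5, adjusted p of 0.053 to 0.073), Aqp2 (without ctr 2, 0.06, or sTX 5, 0.054) and Gbp7 (without ctr 2, 0.055). It gave calls to Slc5a2 (-0.46), Cd8a (1.45) and Gzmb (1.15) without ctr 3, to Cdkn1a without ctr 5 (-0.81), to Myh9 without ctr 4 (0.25), and to Gzmb (1.14) and Myh11 (-0.59) without sTX 5. With signals below 20 set to 20, 4 calls were lost (C3, Gbp2, Gbp7 and S100a9, whose difference became 0.54). Without the intensity trend 5 were lost (Aqp2, C3, Gbp2, Gbp7 and Slc12a3), and the methods' t-test after adjustment lost 11 (the same 5 with Eno2, Irf1, Melk, Psmb9, S100a9 and Sesn2). Quantile normalization lost 1 (Eno2), as did the fit on 10 arrays (Gbp2). Low signals limit genes such as Cd8a, Il6 and Cd163, for which an absent difference cannot be told from one below the range of the array.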

Other observations

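Genes of the unfolded protein response were called in both directions. Of 32 genes of the unfolded protein and integrated stress response 5 were higher and 6 lower (1 and 1 when blocked, 1 and 13 after centring on the median). The disulfide isomerases Pdia3, Pdia6 and Pdia4, which fold secreted proteins, were higher by 0.45 ± 0.06, 0.39 ± 0.08 and 0.48 ± 0.10 in sTX, with blocked adjusted p of 0.0059, 0.14 and 0.56. Herpud1, which takes part in the removal of misfolded proteins, had signals of 1163, 960.5, 1078, 1268 and 918 in ctr 1 to 5 and 463, 413, 407, 452 and 479 in sTX 1 to 5, with no overlap (2.42-fold lower, adjusted p = 1.5e-08, blocked 6.9e-04). Sesn2, which stress induces, had a difference of -0.53 (adjusted p = 0.0097, blocked 0.11).

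The remaining groups are given by their counts, to be read against 16.1% of all genes higher and 8.86% lower. Of 18 glycolysis genes 2 were higher, Ldha, the muscle form of lactate dehydrogenase (0.55 ± 0.10, blocked adjusted p = 0.03), and Eno2, an enolase (0.72 ± 0.19, blocked 0.35), and 0 were lower. Cholesterol synthesis counted 6 higher and 1 lower of 21 but 0 and 7 after centring on the median. Of 21 citrate cycle genes 4 were lower and 0 higher, of 22 genes of vitamin D, Klotho and renal hormones 4 were lower and 0 higher, and of 21 genes of the distal convoluted and connecting tubule 5 were lower and 0 higher. Principal cells of the collecting duct counted 4 higher and 2 lower of 19. The MHC class II list counted 5 higher of 9 (1 when blocked). After centring on the median, only a transactivator and a protease of the 5 kept their call (adjusted p = 0.03 and 0.003). The called chains of the class II molecules did not (0.075 to 0.16). MHC class I and leukocyte adhesion genes counted 4 higher of 20 and neutrophil genes 2 of 9.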
